A study of Homo sapiens with 9 samples.

Results

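Neutrophil-attracting chemokines of the CXC family and the CC chemokine CCL20 were followed at the RNA level in HCT116 cells, an established human colorectal carcinoma line. The members were taken by gene name and are CXCL1, CXCL2, CXCL3, CXCL5, CXCL6, CXCL8 and CCL20. Of these 7 genes, 6 were read from the deposited table of 33861 genes and 5 passed the filter on low counts, which left 20988 genes tested. CXCL5 was below the filter, and CXCL6 was not analysed here. The genes were chosen by their function and on changes between these groups already seen in the same libraries, so their levels, fold changes and calls are given as a description, without p-values.

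The 9 libraries formed 3 groups, with 3 libraries each. NC (control) cells received neither factor. Activin cells were exposed to activin A at 100 ng/mL for 5 days. Activin+HGF cells had the same exposure to activin and then hepatocyte growth factor (HGF) at 20 ng/mL for another 5 days. Whether activin stayed in the medium during the HGF step is not stated. Activin+HGF cells therefore differ from Activin cells by HGF, by a longer culture and possibly by removal of activin, which cannot be told apart. The culture time of the NC cells is not stated either. All libraries come from the same cell line, and nothing says that replicates were separate cultures, so the errors and p-values measure the spread between these libraries, which may be technical.

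Chemokines are small secreted proteins that guide leukocytes along a concentration gradient. CXCL1, CXCL2, CXCL3, CXCL5, CXCL6 and CXCL8 carry a glutamate-leucine-arginine motif ahead of their first cysteines and draw neutrophils through the receptors CXCR2 and, for CXCL8 and CXCL6, CXCR1. CCL20 draws CCR6-bearing lymphocytes and dendritic cells to mucosal epithelium. Epithelial cells make these chemokines when interleukin-1, tumour necrosis factor, interleukin-17 or microbial products activate NF-kB, and their messenger RNAs are short-lived because AU-rich stretches at the 3′ end recruit decay factors.

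The CXC members lie together on chromosome 4, and CCL20 lies on chromosome 2. In the coordinates of the deposited table (GRCh38), CXCL8 (ENSG00000169429) spans 73740541 to 73743716 and CXCL1 (ENSG00000163739) spans 73869393 to 73871308, both on the plus strand. CXCL5 (ENSG00000163735) at 73995642 to 73998677, CXCL3 (ENSG00000163734) at 74036589 to 74038807 and CXCL2 (ENSG00000081041) at 74097040 to 74099195 are on the minus strand. CCL20 (ENSG00000115009) spans 227805739 to 227817556 on the plus strand of chromosome 2.

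The 150 bases before the RefSeq transcription start of the 5 tested genes (GRCh38.p14) are shown because they hold a feature that the choice of members did not use. Each is written 5′ to 3′ on the strand of its gene, with a sequence of the kind bound by NF-kB (a kappa-B sequence) in capitals. The windows are chr4:73869243-73869392 on the plus strand for CXCL1, chr4:74099196-74099345 on the minus strand for CXCL2, chr4:74038690-74038839 on the minus strand for CXCL3, chr4:73740419-73740568 on the plus strand for CXCL8 and chr2:227813692-227813841 on the plus strand for CCL20.
CXCL1: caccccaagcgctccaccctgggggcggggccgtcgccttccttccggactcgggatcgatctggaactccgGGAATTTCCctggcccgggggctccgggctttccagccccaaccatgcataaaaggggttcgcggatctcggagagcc
CXCL2: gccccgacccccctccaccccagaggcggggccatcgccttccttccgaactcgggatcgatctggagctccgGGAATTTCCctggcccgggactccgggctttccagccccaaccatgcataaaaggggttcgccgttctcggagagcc
CXCL3: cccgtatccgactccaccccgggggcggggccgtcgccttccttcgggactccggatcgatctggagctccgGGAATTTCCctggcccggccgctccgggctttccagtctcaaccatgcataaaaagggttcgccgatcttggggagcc
CXCL8: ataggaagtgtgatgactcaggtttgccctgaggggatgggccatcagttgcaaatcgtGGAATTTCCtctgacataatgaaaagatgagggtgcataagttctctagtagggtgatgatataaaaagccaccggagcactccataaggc
CCL20: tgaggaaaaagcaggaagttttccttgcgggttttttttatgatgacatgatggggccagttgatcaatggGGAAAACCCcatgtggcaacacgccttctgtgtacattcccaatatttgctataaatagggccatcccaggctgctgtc

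The sequence GGAATTTCC stood within 250 bases before the start in 6 of the 7 members, CXCL6 included, and was found on either strand in 0.413% of 35116 RefSeq promoters of that length. Its first base was 91 bases before the start in CXCL8, 78 bases in CXCL1 and CXCL3, 77 bases in CXCL2 and 90 bases in CXCL5. CCL20 held GGAAAACCC instead, starting 79 bases before its start, a sequence found in 0.390% of the promoters. Both letter strings were chosen after these promoters had been seen, so the shares describe how common the strings are. The AP-1 sequence TGANTCA, bound by FOS and JUN proteins, was in the promoter of CXCL8 alone among the members and in 6.57% of all promoters. CAGAC, the core of a SMAD-binding sequence, was in the promoters of CXCL2 and CXCL5 and in 38.0% of all promoters. A match of letters is a description and not evidence of binding.

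The promoters of CXCL1, CXCL2 and CXCL3 resembled each other over 250 bases, with 81.4% identity between CXCL1 and CXCL3, 73.4% between CXCL2 and CXCL3 and 70.1% between CXCL1 and CXCL2. CXCL5 and CXCL6 shared 85.3%. Every other pair of members was between 43.9% and 54.2% identical. At the other end of the transcripts, the members were rich in ATTTA, the core of AU-rich elements. The longest annotated 3′ untranslated region (GENCODE 29) of CXCL2 held 10 such pentamers, or 13.9 per kilobase, more per kilobase than 99.7% of 18789 genes. CXCL3 had 10.4 per kilobase, CXCL8 7.19, CXCL1 7.08, CCL20 6.24 and CXCL5 5.51, against a median of 1.43 over all genes.

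Some properties of the libraries bear on all values below. Total counts were 57453977 to 77016167 per library. Among counts from 1 to 40, 35.0% were multiples of 4, so a count need not be 1 sequenced fragment and intervals from counting error would be too narrow. Counts of replicates were further apart than sampling noise allows, with a chi-square of 61.5 to 281 for each degree of freedom, so no 2 libraries were counted as 1. Activin library 2 (223 and 273 against the other Activin libraries, which were at 89.4 from each other) and Activin+HGF library 1 (259 and 281, against 65.3) stood apart from their groups, and the values of the members without them are given beside each comparison. Of 8 colorectal epithelium markers, 6 were at 1 CPM or more in every library, while VIL1 and CDX1 stayed below 1 CPM. PTPRC, the pan-leukocyte marker, reached at most 0.149 CPM and CSF3R, a neutrophil marker, at most 0.0595 CPM. Other leukocyte markers went higher, with maxima of 2.46 CPM for CSF1R, 1.80 for ITGAM, 1.78 for LYZ and 1.01 for CD14. In the Activin libraries, 1 of the 9 leukocyte markers was at 1 CPM or more throughout. The summed level of 9 leukocyte markers was 1.52 to 2.48 CPM in NC, 4.24 to 5.06 CPM in Activin and 1.64 to 4.77 CPM in Activin+HGF libraries. The sums of 6 fibroblast markers, nearly all of it COL1A1, were 25.7 to 28.5, 47.9 to 54.7 and 34.0 to 41.9 CPM, and those of 4 endothelial markers 0.718 to 2.01, 1.33 to 2.73 and 0.349 to 1.16 CPM.

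In NC cells the members were at low levels. Levels are compared between genes as FPKM, the authors' value per length of gene and depth of library. CXCL1 had the highest NC level at 0.477 ± 0.0907 FPKM (SD, n = 3), above 58.0% of the genes in the table. CXCL3 (0.287 ± 0.0577), CXCL2 (0.267 ± 0.0839) and CXCL8 (0.173 ± 0.0306) followed, and the ranges of neighbours in this order overlapped except for that of CXCL1, which lay above the rest. CCL20 was listed at 0 in every NC library.

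CXCL8 (interleukin-8, the ligand of both CXCR1 and CXCR2) had the highest level of the members after activin. On the scale of CPM (counts scaled by the size of the library after TMM), CXCL8 was at 0.457, 0.550 and 0.360 in NC libraries 1, 2 and 3. It was at 59.8, 60.3 and 63.6 CPM in the Activin libraries and at 27.2, 12.1 and 16.1 CPM in the Activin+HGF libraries. The 3 groups did not overlap, and the Activin libraries lay close to each other while Activin+HGF library 1 was well above libraries 2 and 3. The fitted change with activin was 7.07 ± 0.368 on the log2 scale (SE), or 134-fold, from edgeR.

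CXCL1 (GRO-alpha, a CXCR2 ligand) followed. Its level was 0.882, 0.654 and 0.683 CPM in NC, 15.0, 21.9 and 18.8 CPM in Activin and 2.41, 1.35 and 2.37 CPM in Activin+HGF libraries. Again no groups overlapped. The log2 change with activin was 4.65 ± 0.324, or 25.1-fold, and the Activin+HGF level lay much nearer to NC than to Activin.

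CXCL2 and CXCL3 (GRO-beta and GRO-gamma) are close relatives of CXCL1 that bind the same receptor. CXCL2 was at 0.522, 0.520 and 0.286 CPM in NC, at 3.53, 4.88 and 4.80 CPM in Activin and at 0.496, 1.61 and 1.70 CPM in Activin+HGF libraries. Activin+HGF library 1 fell within the NC range, so these groups overlapped. CXCL3 was at 0.800, 0.580 and 0.795 CPM in NC, at 3.24, 6.75 and 4.56 CPM in Activin and at 1.58, 1.29 and 2.43 CPM in Activin+HGF libraries. Here no groups overlapped, although the Activin libraries were spread widely. The log2 changes with activin were 3.31 ± 0.503 for CXCL2 (9.94-fold) and 2.74 ± 0.393 for CXCL3 (6.68-fold). Transcripts of CXCL2 and CXCL3 share sequence: of the 100-base windows of CXCL2 transcripts, 79 of 1581 (5.00%) also occur in CXCL3, so the division of reads between the pair is partly uncertain. CXCL1, CXCL5, CXCL8 and CCL20 shared no such window with another gene.

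CCL20, the ligand of CCR6, had 0 counts in every NC library. The Activin libraries had 211, 144 and 247 counts (2.86, 2.30 and 3.29 CPM), and the Activin+HGF libraries had 0, 15 and 8 counts (0, 0.218 and 0.125 CPM). Against the floor of 3 counts in an NC library (0.0490 CPM), the mean of CCL20 in the Activin libraries was 57.5-fold higher. The floor takes counts as sequenced fragments, so this fold is no firm lower bound. CCL20 passed the filter on low counts through its Activin libraries alone, so it had to differ.

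CXCL5 (ENA-78, a further CXCR2 ligand) was the only member analysed without signal after treatment. It had 0, 19 and 14 counts in the NC libraries and 0 counts in all 6 treated libraries. If 1 count is 1 fragment, a count of 0 allows up to 3 counts. This is 0.0480 CPM in an Activin and 0.0551 CPM in an Activin+HGF library, against 0.282 CPM in the highest NC library. Since NC library 1 was also at 0, the groups overlapped and no difference was detectable at this depth.

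**Figure D1:**
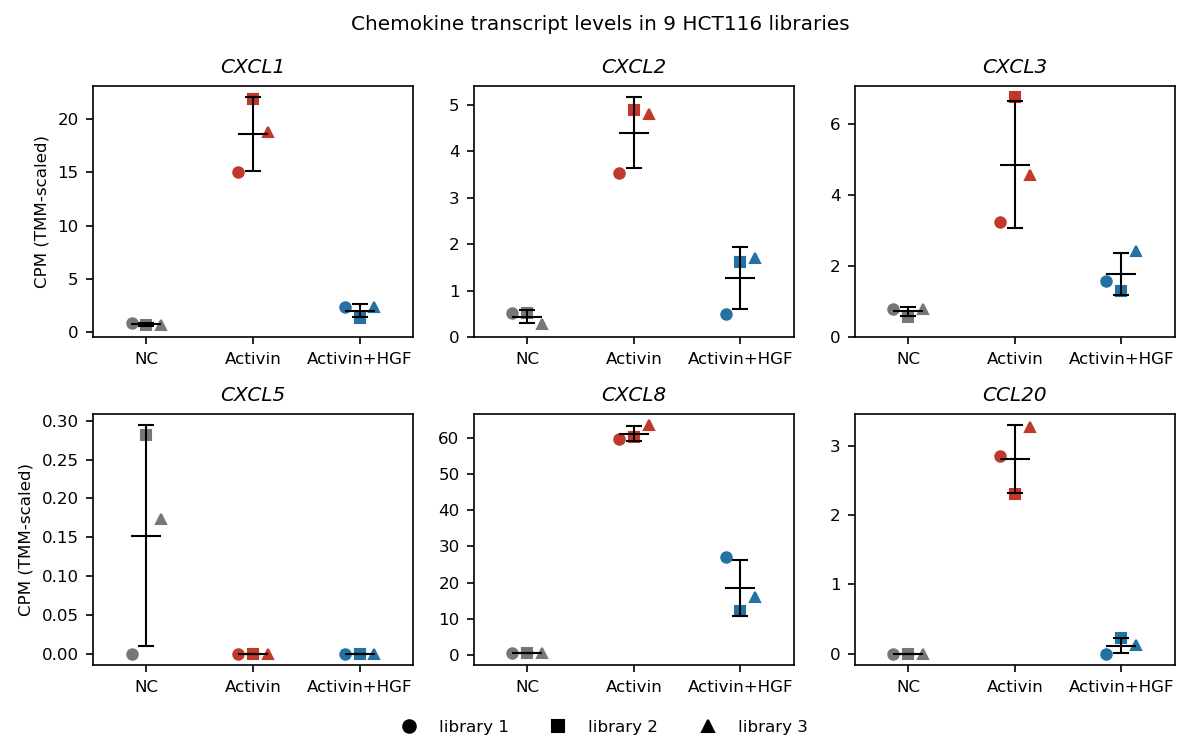
Level of each chemokine in CPM (TMM-scaled) in NC, Activin and Activin+HGF libraries, with 1 point per library (circle, library 1; square, library 2; triangle, library 3) and bars for mean and SD (n = 3). CXCL8 reaches 59.8 to 63.6 CPM in Activin libraries and 12.1 to 27.2 CPM in Activin+HGF libraries, and the vertical scale differs between panels.

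The first comparison asks what activin did to these genes. All 5 tested members were called higher in Activin than in NC cells, where a call is a Benjamini-Hochberg adjusted p under 0.05 in edgeR's quasi-likelihood test together with a log2 change of 1 or more in size. Over all tested genes 6.78% were called higher. All 5 also had every Activin library above every NC library, against 20.9% of tested genes. By size of the log2 fold change among the tested genes, CCL20 was number 8 (a fit against a group at 0 counts), CXCL8 number 76, CXCL1 number 199, CXCL2 number 347 and CXCL3 number 529 from the top. Since these changes bear on the choice of members, nothing is read from these counts and ranks. Without Activin library 2, the log2 changes were 7.08 for CXCL8, 4.51 for CXCL1, 3.23 for CXCL2 and 2.42 for CXCL3, and the 5 calls were kept, with CCL20 still at 0 counts in NC. In RNA from whole cultures, more cells that express a gene and more RNA per cell cannot be told apart.

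The next comparison asks how far the activin response was still present after the HGF step, with or without activin. All 5 tested members were called lower in Activin+HGF than in Activin cells, with no overlap between the groups. Over all tested genes 4.21% were called lower and 15.6% were lower with no overlap. CCL20 passed the filter on low counts through its Activin libraries alone, so it had to differ. Its Activin+HGF libraries had 0, 15 and 8 counts, so its fold rests on few counts. As with activin, nothing is read from the count of members called. The log2 change was -4.57 ± 0.903 for CCL20 (23.7-fold lower), -3.18 ± 0.301 for CXCL1 (9.09-fold lower), -1.79 ± 0.469 for CXCL2 (3.46-fold lower), -1.73 ± 0.282 for CXCL8 (3.32-fold lower) and -1.45 ± 0.374 for CXCL3 (2.74-fold lower). The order differed from that with activin, with CXCL1 losing more than CXCL8.

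The calls of CXCL1 and CXCL8 in this comparison were kept whichever library was left out. Those of the other members were lost when certain libraries were left out, 1 at a time. The call of CXCL2 was lost without Activin library 1 (log2 change -1.998), 2 (-1.71) or 3 (-1.80), or Activin+HGF library 2 (-1.99). The call of CXCL3 was lost without Activin library 2 (-1.14) or 3 (-1.56), or Activin+HGF library 1 (-1.38) or 2 (-1.27). The call of CCL20 was lost without Activin library 1 (-4.64) or 3 (-4.53), and without Activin+HGF library 2, which holds most of its counts in that group, the change was -5.40. All of these changes kept their sign. Without Activin+HGF library 1 the changes of the others were -3.31 for CXCL1, -1.41 for CXCL2, -2.11 for CXCL8 and -4.02 for CCL20, and without Activin library 2 they were -3.05 for CXCL1, -1.74 for CXCL8 and -4.69 for CCL20.

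**Figure D2:**
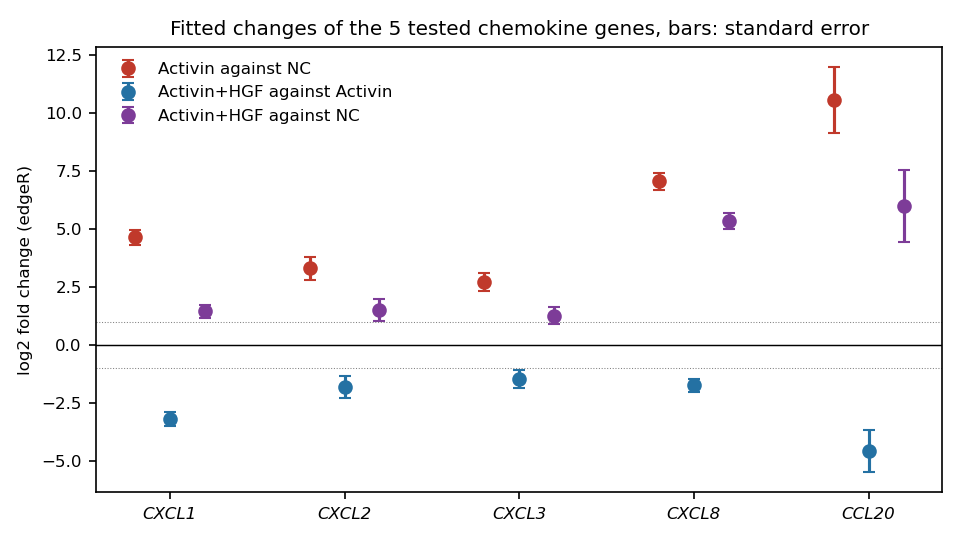
Fitted log2 fold changes of the 5 tested chemokine genes in the 3 comparisons, with bars for the standard error and dotted lines at the fold threshold of 1 on the log2 scale. Each gene is above 0 in Activin against NC, below 0 in Activin+HGF against Activin and above 0 in Activin+HGF against NC. The CCL20 point for Activin against NC is a fit against a group at 0 counts and is no measure of size.

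The part of the activin increase that was left in Activin+HGF cells was computed from group means as the level above NC, in percent of the Activin level above NC. On the CPM scale it was 29.6% for CXCL8, with single Activin+HGF libraries between 19.1% and 44.0%. It was 25.3% (13.8% to 41.4%) for CXCL3, 20.9% (1.34% to 31.7%) for CXCL2, 7.31% (3.43% to 9.35%) for CXCL1 and 4.06% (0% to 7.74%) for CCL20. The ranges of CXCL1 and CCL20 lay below those of CXCL8 and CXCL3, and the range of CXCL2 overlapped both sets. On the FPKM scale the order was the same, with 22.0% for CXCL8, 16.4% for CXCL3, 15.1% for CXCL2, 4.83% for CXCL1 and 2.97% for CCL20.

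Between Activin+HGF and NC cells, which share their groups with the 2 comparisons above, all 5 tested members were called higher, against 11.3% of all tested genes. Only CXCL1, CXCL3 and CXCL8 had no overlap between groups, as did 25.7% of tested genes in this direction. The change of CXCL8 stood apart at 5.34 ± 0.343 on the log2 scale (40.5-fold). CXCL2 was at 1.52 ± 0.478 (2.88-fold), CXCL1 at 1.46 ± 0.293 (2.76-fold) and CXCL3 at 1.28 ± 0.379 (2.43-fold). For CCL20, with 0, 15 and 8 counts against 0, the mean was 2.33-fold above the floor. It was 3.50-fold above the floor without Activin+HGF library 1 and 1.27-fold without library 2. These folds also take 1 count as 1 fragment and are no firm lower bounds. Without Activin+HGF library 1 the log2 changes were 4.95 for CXCL8, 1.91 for CXCL2, 1.33 for CXCL1 and 1.36 for CXCL3, all called.

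The calls of CXCL8 and CXCL1 against NC were kept whichever library was left out. The call of CXCL2 was lost without NC library 1 (1.62), 2 (1.62) or 3 (1.28), or Activin+HGF library 2 (1.32) or 3 (1.26). That of CXCL3 was lost without NC library 1 (1.32), 2 (1.11) or 3 (1.35), or Activin+HGF library 3 (0.98). The call of CCL20 was lost without NC library 3 (5.97) or Activin+HGF library 2 (5.17), both fits against a group at 0 counts that give no measure of size. With limma on log2(FPKM + 1), CXCL8 was the only member called.

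Added together, the FPKM of the 6 members rose and fell with the same steps. The sum was 1.26 ± 0.136 in NC (1.13 to 1.40), 45.5 ± 3.20 in Activin (43.6 to 49.2) and 8.24 ± 1.73 in Activin+HGF libraries (6.38 to 9.80), all SD with n = 3. The make-up of the sum changed as well. CXCL8 supplied 13.8% ± 2.04 of it in NC, 57.1% ± 4.31 in Activin and 70.3% ± 9.51 in Activin+HGF cells, and Activin and Activin+HGF libraries did not overlap in this share. CXCL1 went from 37.8% ± 4.29 through 28.2% ± 3.15 to 13.0% ± 2.02. CXCL2 and CXCL3 together with CXCL1 made up most of the small NC level, and in Activin cells they had shares of 6.50% ± 0.624 and 4.47% ± 1.35.

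**Figure D3:**
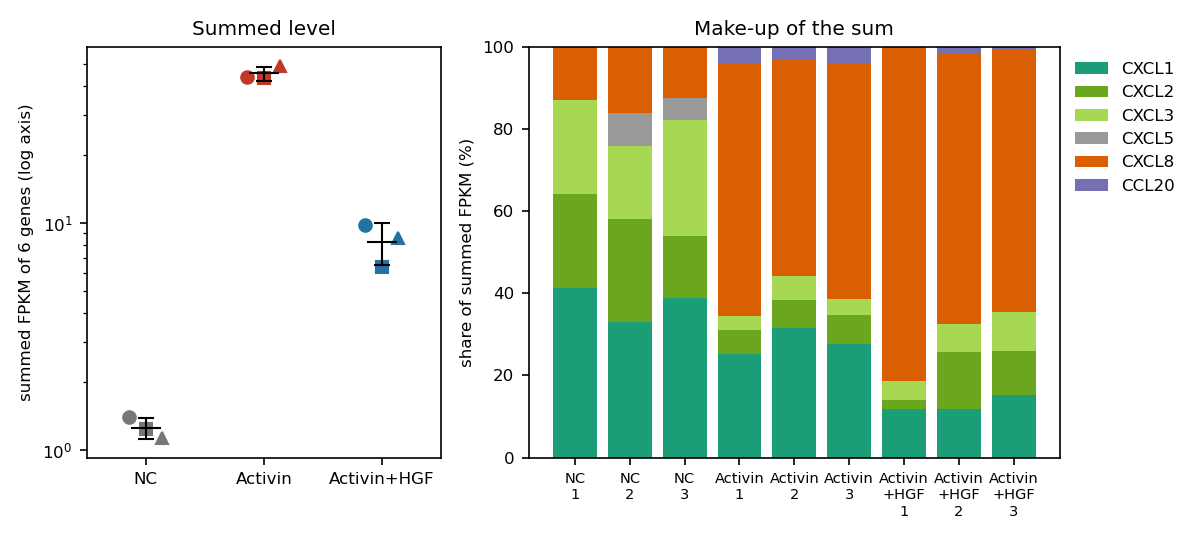
Left, summed FPKM of the 6 genes by group (log axis), with 1 point per library and bars for mean and SD (n = 3). Right, share of each gene in the sum for each library in percent, where CXCL8 goes from 12.4% to 16.1% in NC libraries to between 63.9% and 81.2% in Activin+HGF libraries.

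Within Activin cells the order of levels was CXCL8 (26.0 ± 2.66 FPKM), CXCL1 (12.8 ± 1.52), CXCL2 (2.97 ± 0.430), CXCL3 (2.03 ± 0.570) and CCL20 (1.68 ± 0.408). CXCL2 and CXCL3 overlapped in range, as did CXCL3 and CCL20, while CXCL8 and CXCL1 stood clear of each other and of the rest. CXCL8 was then above 96.4% of all genes in the table and CXCL1 above 92.1%. In Activin+HGF cells CXCL8 (5.87 ± 1.91 FPKM) was still above 85.7% of genes, and CXCL1 (1.07 ± 0.283), CXCL2 (0.673 ± 0.384) and CXCL3 (0.573 ± 0.214) lay close together with overlapping neighbours. The ratio of counts to FPKM was taken over libraries with at least 0.2 FPKM. These were 3 for CCL20, 7 for CXCL8 and 8 for CXCL2. The ratio varied between them by 1.04 to 1.34 times within a tested member, against a median of 1.35 over 9240 well-covered genes. Differences between libraries within that margin depend on the unit, and the margin leaves out the libraries at lower levels.

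Profiles over the 9 libraries were compared by the root mean square difference of log2(CPM + 0.5) after centring each gene on its mean. Among the tested members, CXCL2 and CXCL3 were most alike (0.398), followed by CXCL2 and CCL20 (0.460), while CXCL8 was at least 1.36 from every other member. The nearest of 14754 other genes with a mean of at least 1 CPM were FOXL1 (0.229) and MMP19 (0.240) for CXCL2, ATP2C2 (0.237) and AC022506 (0.239) for CXCL3, and HERC5 (0.250) and MICAL2 (0.310) for CCL20. For CXCL1 they were KRT17 (0.404) and DHRS2 (0.457), and for CXCL8 SPRR2D (0.423) and UPP1 (0.624). SPRR2D had 0 CPM in NC, 37.6 CPM in Activin and 13.4 CPM in Activin+HGF cells on average, and KRT17 had 0.115, 11.5 and 0.510 CPM. CCL20 was at 0 CPM in NC, 2.82 CPM in Activin and 0.114 CPM in Activin+HGF cells on average. The offset of 0.5 narrows such a range, so the distances of CCL20 depend on it. HERC5, its nearest gene, was at 14.6, 85.4 and 17.6 CPM. CXCL5 varied little on this scale and was nearest to COG7 (0.124) and ITGB1BP1 (0.127). These are likenesses over 9 libraries in 3 groups and say nothing of shared control.

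Receptors and binding partners come next in the pathway. This list and those below were also chosen with earlier results of these data known. Their counts beside the shares of all genes are a description and no test of a list. CXCR1, a receptor for CXCL8, was at 0.131, 0 and 0.149 CPM in NC, 0.678, 1.02 and 0.678 CPM in Activin and 0.404, 0.334 and 0.171 CPM in Activin+HGF libraries. Its groups did not overlap between Activin and the others, but the change with activin was not called (log2 change 3.06 ± 0.987, edgeR adjusted p = 0.0564), and it was called with DESeq2, with limma on log2(FPKM + 0.1) and with counts divided by 4. CXCR2 was at or below 0.229 CPM in every library and was not tested, and CCR6 and ACKR1 were not analysed here. SDC4, a heparan sulfate proteoglycan of the kind that holds chemokines at the cell surface, rose with activin from 84.1, 88.4 and 87.2 CPM to 713, 1037 and 742 CPM (log2 change 3.26 ± 0.306, adjusted p = 0.00014 from edgeR). Of the 5 tested genes of this list, SDC4 was called higher and SDC2 lower with activin, against 6.78% and 4.62% of all genes. SDC2 was at 12, 47 and 72 counts in NC and 0 in every Activin library, 12.4-fold lower against a floor of 3 counts. It passed the filter on low counts through its NC libraries, so its call is given as a description. This call was lost without NC library 2 or 3 or any Activin library. No gene of this list was called between Activin+HGF and Activin cells by edgeR.

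A further list held cytokines, receptors and sensors linked to induction of these chemokines in epithelium, not all of them inducers. Of its 13 tested genes, 2 rose with activin and 0 fell, where 6.78% and 4.62% of all tested genes did. Those that rose were IL1RAP, the accessory chain of the interleukin-1 receptor (log2 change 2.38 ± 0.297, adjusted p = 0.000584 from edgeR), and IL1A, interleukin-1 alpha (2.25 ± 0.496, adjusted p = 0.0112 from edgeR). IL1A was a low transcript, at 0.164 to 0.343 CPM in NC, 0.732 to 1.72 CPM in Activin and 1.38 to 1.87 CPM in Activin+HGF libraries, and the ranges of the Activin and Activin+HGF libraries overlapped. Its call with activin was lost without NC library 2 (2.12) or 3 (2.11). None of the list was called between Activin+HGF and Activin cells. IL1B, TNF and IL17C were below the filter.

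Of 16 NF-kB pathway genes, 6 rose with activin and 0 fell, against the same shares over all genes, and the median log2 change of the list was 0.37 against 0.02 over all tested genes. BIRC3, an inhibitor of apoptosis (3.16 ± 0.504, adjusted p = 0.00224), RELB, the subunit of the non-canonical pathway (2.73 ± 0.213, adjusted p = 4.2e-05), NFKBIZ, a nuclear co-activator of NF-kB targets (2.38 ± 0.236, adjusted p = 0.000175), and TNFAIP3, the feedback inhibitor A20 (2.03 ± 0.391, adjusted p = 0.00586), had the largest log2 changes in edgeR's test. BIRC3 was at 37.7, 10.5 and 42.6 CPM in the Activin libraries, and its change was 3.56 without library 2. RELA, the main activating subunit, was not called, at 57.9 ± 15.7 CPM in NC and 66.0 ± 14.8 CPM in Activin cells (SD, n = 3). In Activin+HGF against Activin cells, 1 of the 16 was lower and 0 were higher, where 4.21% and 3.87% of all tested genes were. The lower gene was NFKBIZ, at 21.8, 20.7 and 13.7 CPM in Activin and 8.19, 7.51 and 7.69 CPM in Activin+HGF libraries (log2 change -1.26 ± 0.227, adjusted p = 0.00936 from edgeR). The median of the list was then -0.20, against -0.04 over all genes. Against NC, the Activin+HGF cells had 6 of the 16 higher and 1 lower, where 11.3% and 10.2% of all tested genes were called. RELB had the largest increase (2.72 ± 0.213, adjusted p = 3.2e-05 from edgeR), and the lower gene was NFKB1, the subunit that partners RELA (-1.22 ± 0.262, adjusted p = 0.0062 from edgeR).

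AP-1 proteins, C/EBP proteins and EGR1 are other transcription factors that act on promoters of this family. Of 11 tested, 10 rose with activin and 0 fell, where 6.78% and 4.62% of all tested genes did, led by ATF3 (3.79 ± 0.517, adjusted p = 0.000993), JUN (3.02 ± 0.333, adjusted p = 0.000308) and EGR1 (2.99 ± 0.306, adjusted p = 0.000211) in edgeR's log2 changes. The call of FOS with activin (1.52 ± 0.357, adjusted p = 0.0149 from edgeR) was lost without NC library 2 (1.41). In Activin+HGF cells 0 were lower than in Activin cells and 4 were higher, where 3.87% of all tested genes were higher. FOS rose by 2.25 ± 0.363 (adjusted p = 0.00676 from edgeR) and JUN by 1.72 ± 0.316 (adjusted p = 0.0103 from edgeR). Without Activin+HGF library 1 these changes were 1.79 for FOS and 1.22 for JUN, and without Activin library 2 they were 2.504 and 1.93. The call of JUN was lost without Activin library 1 (1.54), as were those of JUNB (0.87) and JUND (0.92). Leaving out Activin library 3 also removed those of JUNB (0.85) and JUND (0.93), and leaving out Activin+HGF library 1 that of JUNB (0.76). The median log2 change of the list was 0.77 in this comparison, and the 5 tested members had values between -4.57 and -1.45. A link between these factors and the members was not tested.

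Factors that act on AU-rich messenger RNAs were mostly not called. Of 9 tested, ZFP36 (tristetraprolin, which binds AU-rich elements and recruits the decay machinery) rose with activin by 3.25 ± 0.460 (adjusted p = 0.00117 from edgeR), and ZC3H12A (the endonuclease regnase-1) rose by 1.31 ± 0.258 (adjusted p = 0.00657 from edgeR). Over all tested genes 6.78% were called higher with activin. None of these factors was called between Activin+HGF and Activin cells. Against NC, Activin+HGF cells had 3 of them called higher, where 11.3% of all tested genes were. ZFP36 was higher by 3.999 ± 0.476 (adjusted p = 0.000252 from edgeR), with Activin+HGF libraries spread widely at 851, 203 and 512 CPM. The others were ZFP36L1 (1.33 ± 0.256) and ZC3H12A (1.11 ± 0.257). The call of ZC3H12A was lost without NC library 1 (0.97) or Activin+HGF library 1 (0.82).

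The list of other secreted or surface products of NF-kB activation held 9 tested genes. Of these, 4 rose with activin and 0 fell, where 6.78% and 4.62% of all tested genes did. LCN2, the siderophore-binding protein lipocalin-2, rose by 3.26 ± 0.354 (adjusted p = 0.000288) and PTGS2, the prostaglandin synthase COX-2, by 2.80 ± 0.294 (adjusted p = 0.000238), both log2 changes from edgeR. The others were CSF2 and IL23A. CSF2 had 0, 4 and 0 counts in NC and 23, 42 and 4 in Activin libraries, and these groups overlapped in CPM. Its call was lost without NC library 1 or 3 or Activin library 1 or 2 (3.12 to 4.09). The call of IL23A was lost without any NC library or without Activin library 2 or 3 (1.48 to 2.03). After HGF 2 were higher than in Activin cells and 0 lower, where 3.87% and 4.21% of all tested genes were. LCN2 rose by a further 1.72 ± 0.326 (adjusted p = 0.0114 from edgeR), a call lost without Activin library 1 (1.54) or 3 (1.62). The other was CSF2, at 23, 42 and 4 counts in Activin and 341, 183 and 96 in Activin+HGF libraries (log2 change 3.33 ± 0.971 from edgeR). It passed the filter on low counts only with its Activin+HGF libraries, so its calls with activin and after HGF are given as a description. The call after HGF was lost without Activin library 1 or 3 or any Activin+HGF library (2.59 to 3.69). The change was 4.23 without Activin library 2.

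Genes beside the chemokine cluster on chromosome 4 were listed as well. Of 7 tested neighbours, AREG (amphiregulin, an EGF receptor ligand) rose with activin by 1.72 ± 0.155 (adjusted p = 0.000108 from edgeR), RASSF6 was called higher at 1.07 ± 0.293 (adjusted p = 0.0295 from edgeR, lost without any NC library or without Activin library 1 or 3, at 1.02 to 1.15) and the other 5 were not called. With activin, 6.78% of all tested genes were called higher. In the step from Activin to Activin+HGF cells, EREG (epiregulin) fell by 1.57 on the log2 scale (SE 0.179, adjusted p = 0.0021 from edgeR) and BTC (betacellulin) by 1.54 (SE 0.293, adjusted p = 0.0115 from edgeR), and 0 rose. Of all tested genes, 4.21% were called lower and 3.87% higher in this step.

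**Figure D4:**
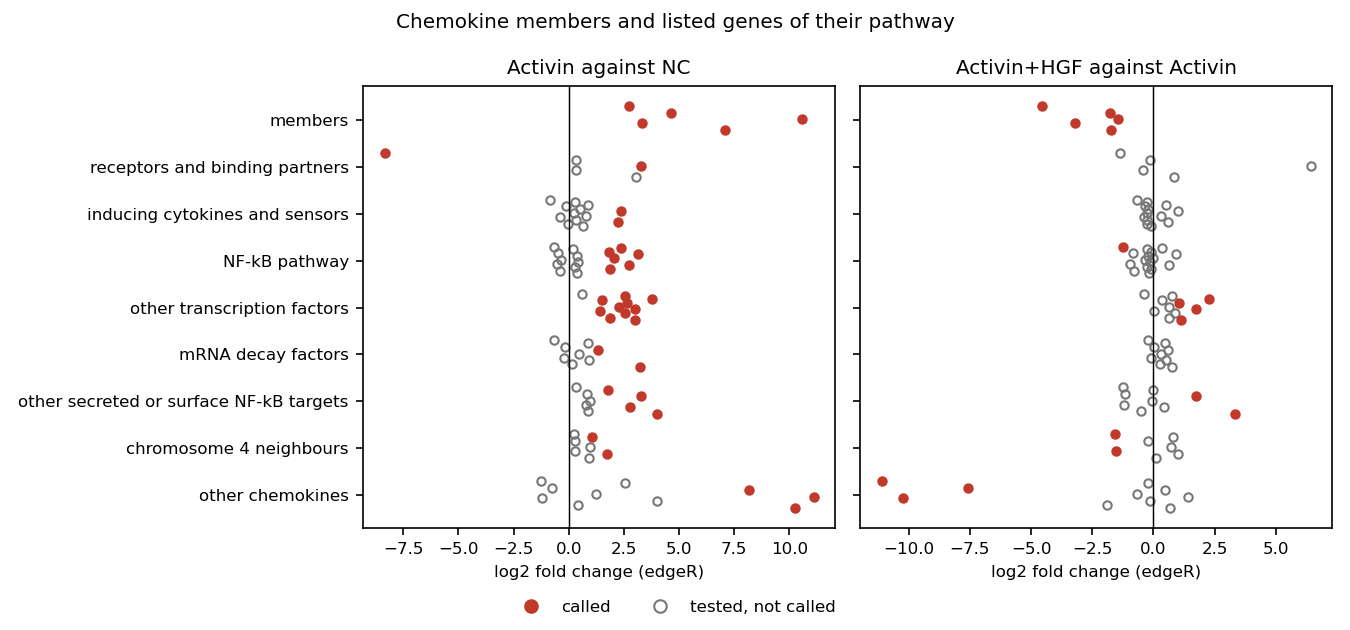
Log2 fold changes (edgeR) of the members and of the listed genes of their pathway, with 1 point per tested gene (filled, called; open, not called). The members are right of 0 with activin (left panel) and left of 0 in Activin+HGF against Activin (right panel), where the other transcription factors have 4 called genes, all right of 0.

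Over the pathway lists together, 84 genes were listed and 70 tested. Since the lists were chosen with earlier results of these data known, the counts describe them and nothing further is read from them. With activin 27 were called higher and 1 lower, where 6.78% and 4.62% of all tested genes were called. Between Activin+HGF and Activin cells 6 were higher and 3 lower, where 3.87% and 4.21% of all tested genes were, and against NC the Activin+HGF cells had 29 higher and 1 lower, where 11.3% and 10.2% of all tested genes were called. These counts include SDC2 with activin and CSF2 in all 3 comparisons, whose calls are given as a description. The count between Activin+HGF and Activin cells was the least stable, at 9 with all libraries, 4 without Activin library 1, 15 without Activin library 2 and 5 without Activin library 3.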

How the data were processed

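RNA of 9 HCT116 libraries was sequenced after depletion of ribosomal RNA. The authors deposited raw read counts per gene and FPKM values, which they had scaled to library size and gene length. Their processing notes name cutadapt 1.9, HISAT2 2.0.4 and StringTie 1.3.4d. The build is not given in the sources used here. The table's coordinates overlapped those of GENCODE 29 (GRCh38) for 99.95% of 32930 shared genes and had the same start and end for 60.2%, so they were read as GRCh38.

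Samples were grouped by their treatment labels. Counts of all 9 libraries entered edgeR 4.0.16 in R 4.3.3 (filterByExpr, TMM, glmQLFit, glmQLFTest) with 1 mean per group and no block. Adjusted p-values (Benjamini-Hochberg) are over all 20988 genes tested. A call needed an adjusted p under 0.05 together with a log2 change of 1 or more in size. Standard errors are approximate, since they were worked back from F statistics. A group with 0 counts was set to a floor of 3 counts in its smallest library, which covers counting error only and takes 1 count as 1 fragment. The fits were tested on simulated data. Replicate numbers were not taken to pair the samples, and a check is given in the closing section.

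The members and all gene lists were chosen with earlier results of these data known. Named genes are the members, CXCR1, CXCR2 and CCR6, up to 4 called genes per list and comparison by size of change, and the 2 nearest profiles of each member. RELA, NFKB1 and the named genes beyond the size limit within a list (such as genes whose calls were lost), were named after their values were seen. Promoters came from the RefSeq table (GRCh38.p14) and transcripts from GENCODE 29. Alternatives were RLE scaling, library totals, other filters, a replicate block, the compared groups alone, DESeq2 1.42.0, limma 3.58.1 on log2(FPKM + 0.1) and log2(FPKM + 1), other thresholds and leaving out each library. Counts divided by 4 were added after seeing the data. Python 3.11.15, numpy 2.4.6, pandas 2.3.3, matplotlib 3.10.9 and biopython 1.88 were used.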

Additional observations from a re-analysis of the deposited data

How the results depend on the processing

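All 5 tested members were called higher with activin under each of 18 alternatives, CCL20 always against a group at 0 counts. Of 239 log2 fold changes of members under the alternatives over the 3 comparisons, 201 stayed on their side of the threshold, 38 lost the call and 0 changed sign. Between Activin+HGF and Activin cells, 5 members were called in the fit as reported, 3 in a fit of these groups alone, 2 at an adjusted p under 0.01 and 2 to 5 when 1 library was left out. Between Activin+HGF and NC cells the count of 5 became 3 with library totals, 3 in a fit of these groups alone, 2 with limma on log2(FPKM + 0.1), 1 with limma on log2(FPKM + 1), 2 at an adjusted p under 0.01 and 2 to 5 without 1 library. Of the listed pathway genes, 9 were called between Activin+HGF and Activin cells, 3 at an adjusted p under 0.01 and 4 to 15 without 1 library, and between Activin+HGF and NC cells 30 were called and 19 with limma on log2(FPKM + 1). For the remaining alternatives these counts stayed within 1.5 times of the reported ones. The cause of these losses was not tested.

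Over all genes, the 2394 calls with activin became 1176 with limma on log2(FPKM + 1), 3776 without the fold threshold and 1421 at an adjusted p under 0.01. The 1697 calls between Activin+HGF and Activin became 660, 2698 and 452 in the same order, 677 in a fit of these groups alone, 2645 with DESeq2 and 606 to 2419 without 1 library. The 4519 calls between Activin+HGF and NC became 2206 with limma on log2(FPKM + 1) and 2973 at an adjusted p under 0.01.

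How libraries with the same number deviate from their group means was correlated. This gave values from -0.103 to 0.196, with 1 of 9 pairs over 0.1. Libraries with different numbers were not correlated, so this check cannot settle whether the numbers paired the libraries. With the replicate number as a block, 5 members were called with activin, 4 between Activin+HGF and Activin and 4 between Activin+HGF and NC, and 26, 9 and 30 listed pathway genes. The calls lost were those of CXCL3 between Activin+HGF and Activin and of CXCL2 between Activin+HGF and NC.

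Only 3 libraries per group limit the precision, and a two-sided exact permutation test of 3 against 3 cannot go below 0.1. CCL20 and CXCL5 rest on few counts, and CXCL2 and CXCL3 share part of their sequence.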

Other observations

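Of the chemokine genes outside the members, 23 were read and 10 passed the filter on low counts. CCL5, CXCL10 and CXCL11 attract T cells and natural killer cells. They were called higher with activin and lower in Activin+HGF than in Activin cells, where 6.78% and 4.21% of all tested genes were. CCL5, CXCL10 and CXCL11 passed the filter on low counts through their Activin libraries alone, so they had to differ, and their calls are given as a description. CCL5 was at 0, 6 and 8 counts in NC, 1257, 1453 and 1328 in Activin and 14, 0 and 4 in Activin+HGF libraries. Its log2 change with activin was 8.16 ± 0.944 from edgeR. CXCL10 had 307, 209 and 349 counts and CXCL11 had 156, 77 and 255 counts in the Activin libraries, and both had 0 counts in the other 6. CXCL16, a membrane-bound chemokine for CXCR6, had another pattern, at 36.3 CPM in NC, 48.9 CPM in Activin and 77.9 CPM in Activin+HGF cells on average. It was called higher in Activin+HGF than in NC cells (log2 change 1.10 ± 0.283, adjusted p = 0.0145 from edgeR), and this call was lost without NC library 1 (1.00). The 6 other tested chemokines were not called in any of the 3 comparisons.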
